A study of Drosophila melanogaster with 4 samples.

Results

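Of the 3053 genomic intervals enriched for GFP-tagged Ultraspiracle (Usp), 734 lie on the right arm of chromosome 3 (3R) outside 3 windows, and these 734 peaks are described here. They were taken from the deposited peak list, in FlyBase release 5 coordinates, as every peak on 3R whose midpoint fell outside 2480000-2840000, 12480000-12800000 and 17400000-17500000. The choice gives those windows to both Hox gene complexes and to Eip93F. Their gene positions were not checked against a release 5 annotation. All of 3R held 759 peaks, so 25 were left out: 1 in the first window, 0 in the second and 24 in the third. The nearest peak kept lay 8.84 kb above the second window, and every other window edge was at least 61.4 kb from a kept peak.

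Usp is the fly member of the retinoid X receptor family. It pairs with the ecdysone receptor EcR, and the pair binds DNA and switches target genes on or off according to the steroid 20-hydroxyecdysone. Wandering larvae of the third instar have left the food and are close to pupariation, when rising ecdysone starts a cascade of early and late genes.

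The series held 2 ChIP and 2 input libraries from *Drosophila melanogaster* larvae of stage L3, strain USP-GFP, genotype PBac{y[+]-attP-3B}VK00033, all carrying a transgene with the genomic coding region of *usp*. Sex was recorded as unknown, and the collection protocol names y; bw cn sp flies instead of that strain. Chromatin was precipitated with the rabbit polyclonal GFP antibody ab290, which is directed at the tag and not at Usp itself. The protocol mentions no dissection, so each peak pools whatever tissues carried the tagged receptor. There was 1 peak list for the series, with a score for each peak and no value per library, so no peak has a replicate mean, a spread or a known depth.

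Most of the 734 Usp peaks lay in groups, but 5 of the 10 with the highest scores had no other peak within 5 kb. The 734 peaks had a median score of 12.2 (95% interval 11.7 to 12.6), the middle 50% scored 9.77 to 16.8, and scores ran from 5.93 to 155. Their median width was 324 bp (95% interval 313 to 338 bp), with 50% of them between 251 and 457 bp. Widths ran from 201 bp, a value shared by 30 peaks, to 4457 bp. Together the peaks covered 321 kb, 1.19% of the 27.0 Mb between the first and last peak less the windows.

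For most of these peaks the score can be read as an enrichment. Scores in the list repeat at values that match −log10 of a Poisson upper tail for whole numbers of overlapping fragments over a background of 43.9 fragments. Of the 734 peaks, 539 (73.4%, exact 95% interval 70.1 to 76.6%) lay within 0.01 of this series, against 74.9% of peaks on all arms. With 91 other backgrounds tried, at most 12.1% of the 734 did. The implied fold over background had a median of 2.30 (interquartile range 2.12 to 2.57). It ran from 1.80, a pileup of 79, to 5.38, a pileup of 236. Of the 539 peaks on the series, 55 reached 3 times the background and 12 reached 4 times. No fold is given for the 195 peaks off the series, which include the highest scores, 155 and 126. Intervals on folds are exact 95% Poisson intervals and take in counting error alone.

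No gene is assigned to any peak. The only gene table at hand places genes on Release 6, and positions were not converted between releases, so regions are named by their release 5 position.

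Peaks on 3R came in groups. Of the 734, 590 (80.4%, exact 95% interval 77.3 to 83.2%) had another peak within 5 kb, edge to edge, close to the 80.1% of peaks on all arms. Joining peaks at that distance gave 260 regions. Of these, 144 held 1 peak, 99 held 2 to 9 and 17 held 10 or more. The 17 large regions contained 258 peaks, 35.1% of the 734, and 40.1% of the sequence covered by peaks. The large regions were 7.06 to 42.4 kb long, and peaks covered 26.5 to 62.5% of each.

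**Figure D1:**
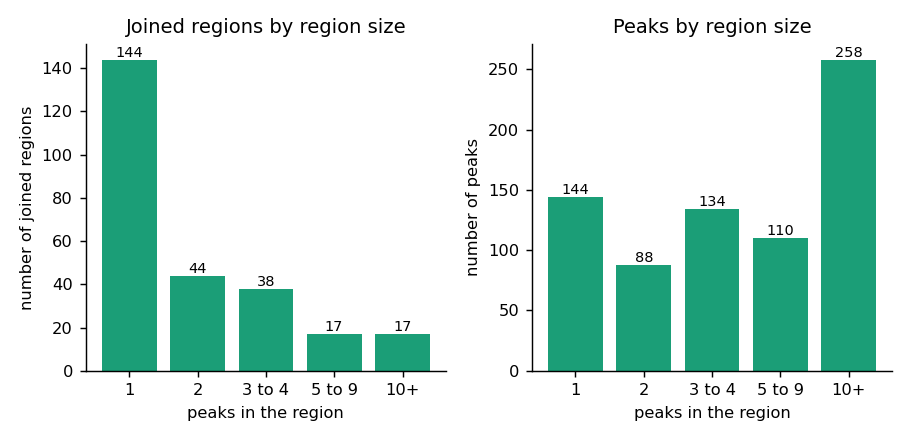
Regions of 3R made by joining peaks within 5 kb (left, number of regions) and the peaks they hold (right, number of peaks), by the number of peaks in the region. The 17 regions of 10 or more peaks held 258 of the 734 peaks, more than the 144 peaks that stood alone.

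Inside the groups, neighbours sat close together. The 474 gaps between neighbouring peaks of a region had a median of 550 bp, quartiles of 230 and 1222 bp and a minimum of 44 bp. In 220 gaps, 46.4%, fewer than 500 bp separated the peaks. The 5 kb limit fell between gaps of 4956 and 5111 bp, and as many gaps (11) lay between 4 and 5 kb as between 5 and 6 kb. Across the 474 neighbouring pairs, Spearman's rho was 0.03 for score and 0.01 for width. The pairs overlap in peaks and come from the same libraries.

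The region with most peaks ran from 12035333 to 12077744, with 36 peaks over 42.4 kb, of which they covered 46.1%. Its scores ran from 8.51 to 52.6, with a median of 13.8. The strongest peak, 12061763 to 12062190, had a width of 428 bp and a fold of 4.10 over background (3.52 to 4.75). The widest, 12055195 to 12058848, lay 4.96 kb from it, centre to centre, measured 3654 bp and reached 3.80 times (3.25 to 4.43). All but 1 of the 8 peaks in this region with a score of at least 20 lay between 12055195 and 12068103. The other, a peak of 3.74 times (3.19 to 4.35) from 12047403 to 12048408, lay farther left, with 7 lower peaks between it and the widest. The intervals of the 3 peaks given with their folds overlap.

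The second region, 2218281 to 2257988, held 25 peaks over 39.7 kb and was the one with most covered sequence, 20.3 kb or 51.0%. Its 7 peaks with a score of at least 20 lay in several places. At its left the peaks from 2219816 to 2222091 (2276 bp, 3.28 times the background, 2.77 to 3.86) and from 2223219 to 2225235 (2017 bp, 3.26 times, 2.75 to 3.84) stood close together, followed by 3 more peaks wider than 1 kb, from 2225312, 2227324 and 2229493, with scores of 27.6, 21.1 and 21.1. The second strongest peak of the region, 2236035 to 2236862 (828 bp, 3.33 times, 2.81 to 3.91), lay farther in. At its right lay its widest and strongest peak, 2249245 to 2252722, which measured 3478 bp, at 3.60 times (3.06 to 4.21). The stretch from 2239080 to 2246527 held 3 low peaks, with scores of 9.77 to 10.1, and included gaps of 2590 and 3725 bp. All but 2 of its 25 peaks were on the series, and both exceptions had a score of 9.77, which missed it by less than 0.015.

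The third region, 25587421 to 25615739, held 20 peaks over 28.3 kb and was looser, with a median gap of 1014 bp. Its strongest and widest peak was the second from the left, 25587893 to 25590119, which measured 2227 bp, at 3.28 times background (2.77 to 3.86). A second group of taller peaks lay about the middle, at 25597968 to 25598326 (3.14 times, 2.64 to 3.71) and 25599299 to 25600018 (3.12 times, 2.62 to 3.69). The right part held low peaks only, with scores of 8.51 to 13.6 from the peak at 25602676 on.

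The fourth region, 13527276 to 13542652, packed 19 peaks into 15.4 kb, of which they covered 56.1%. It had a single dominant summit. This peak, 13529976 to 13530314, had a width of only 339 bp and a fold of 4.53 over background (3.93 to 5.21), the highest fold inside any of the 17 large regions. Its neighbour on the right, 13530753 to 13531887, was the widest of the region at 1135 bp and reached 2.87 times (2.39 to 3.42). The 14 peaks to the right of these had scores of 7.01 to 18.9. The widest peak of the whole set stood 19.3 kb to the left of this region, in a region of 4 peaks from 13500154 to 13507983. It ran from 13503527 to 13507983, measured 4457 bp and reached 3.85 times (3.29 to 4.48).

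**Figure D2:**
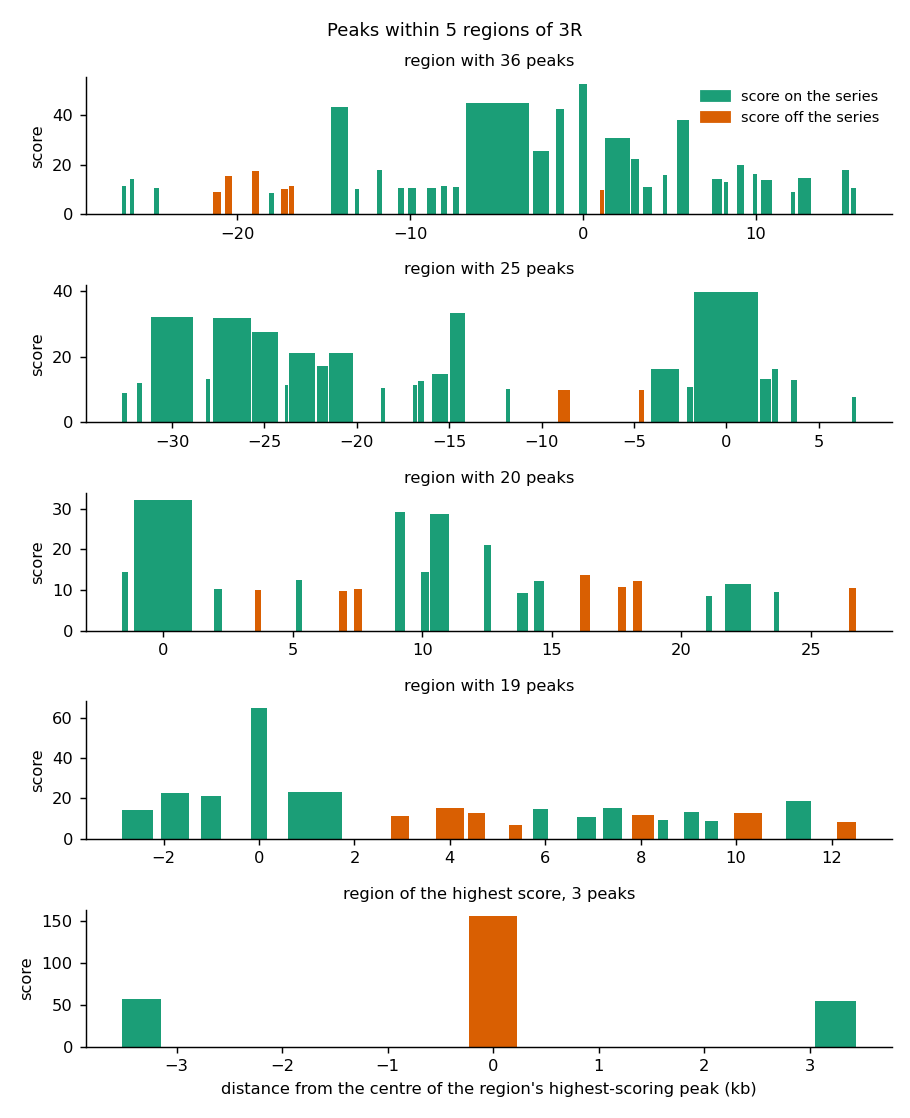
Peaks of the 4 regions with most peaks and of the region with the highest score on 3R. Each bar is a peak, as wide as the peak on the x axis (distance in kb from the centre of the region's highest-scoring peak, with a different range in each panel) and as tall as its score, coloured by whether the score lies on the Poisson series. The 8 scores of at least 20 in the region of 36 lie about its middle, the 7 in the region of 25 lie in several places, 1 summit of 64.7 dominates the region of 19, and the score of 155 stands between peaks of 56.4 and 54.5.

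The next 6 regions held 12 to 16 peaks each, with top scores of 18.9 to 34.3. The region from 5777757 to 5795182 held 16 peaks with a median score of 9.67, the lowest median of the 17 large regions, and its strongest and widest peak (score 21.8, 713 bp) was the last on the right. The region from 27423005 to 27435430 held 15 peaks in 12.4 kb with 57.9% covered, and its strongest peak, 27427563 to 27428696, had a score of 22.4. Its widest peak, next to it at 27428744 to 27430051, was 1308 bp wide and stood at 2.55 times the background (2.10 to 3.07). Both regions were thus many weak peaks with at most 1 score of 20 or more.

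The region from 20085654 to 20104580 (13 peaks) had no score above 18.9, that of the peak from 20092731 to 20093092 at 2.64 times (2.18 to 3.17), and its widest peak (1041 bp) was the last on the right, from 20103540. The region from 10531441 to 10549425 (13 peaks) was the least covered of the 17, at 26.5%. Its strongest peak lay near its right end at 10547542 to 10548159, with 2.71 times (2.25 to 3.24), and its widest, 10540587 to 10541251, was 665 bp.

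The region from 5161432 to 5177475 held 12 peaks that covered 61.0% of it and had the largest median width of the 17, 604.5 bp. A narrow strong peak, 5166233 to 5166545 (313 bp, 3.35 times, 2.83 to 3.94), lay 2.09 kb, centre to centre, from its widest, 5163221 to 5165379 (2159 bp, 3.17 times, 2.66 to 3.74), with a weaker peak between them. The region from 10107317 to 10122684, also of 12 peaks, was the only large region with every peak on the series. In the region from 10107317, the strongest peak was the second from the left, 10108638 to 10109129, at 3.37 times (2.85 to 3.96). Its widest, 10116093 to 10117383, was 1291 bp wide and stood at 2.51 times (2.06 to 3.02).

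Among regions of 3 or more peaks, the strongest peak was also the widest in 40 of 72 (55.6%), and in 5 of the 17 large ones. Such a match is less likely in a region of more peaks, and whether region size alone gives these shares was not tested. The top score of a region rises with its number of peaks by construction, since it is the maximum of more values. The median of the regions' top scores was 13.7 for regions of 2 peaks, 20.2 for 3 to 4, 21.5 for 5 to 9 and 25.2 for 10 or more. The typical peak was no stronger in them: the median score was 12.9 for single peaks, 11.5 in pairs, 11.8 and 11.9 in the next classes and 12.0 in regions of 10 or more. Across the 116 regions of 2 or more peaks, Spearman's rho between the number of peaks and the top score was 0.43, and −0.07 for the median score. The regions share libraries and a peak call, and these correlations are descriptions only.

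The highest scores and the largest widths belonged to different peaks. The 10 highest scores were those of peaks 339 to 512 bp wide, all above the median width of 324 bp and none broad, while the 5 widest peaks scored 19.3 to 46.0. Higher scores went with larger widths over the set as a whole, and the peaks of score 40 or more had a median width of 444.5 bp. Peaks wider than 1 kb had 11 of the 50 highest scores, against a share of 5.59% of all 734 peaks. At that share, few or none would be broad among 10 peaks taken at random. A score of at least 40 was reached by 26 peaks (3.54%, against 3.70% of peaks on all arms). Of these, 23 were at most 1 kb wide, with a median of 428 bp, and 3 were wider. A score of at least 20 was reached by 116 peaks (15.8%, against 16.5% of peaks on all arms).

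The highest score on 3R, 155, belonged to the peak from 8331394 to 8331852 (459 bp). It was 1.23 times the next score among the 734 peaks, while a peak in the first left-out window scored 153. The peak from 8331394 lay off the series and stood in the middle of 3 evenly placed strong ones. The peak to its left, 8328107 to 8328473 (score 56.4), had a fold of 4.24 over background (3.65 to 4.89). The one to its right, 8334677 to 8335059 (score 54.5), had a fold of 4.17 (3.59 to 4.82). Their starts were 3287 and 3283 bp from that of the middle peak, and their centres 3333 and 3245 bp. Of 13 runs of 3 neighbouring peaks with both gaps within 5 kb and both centre distances at least 2 kb, 2 were as even as 100 bp. One more strong peak, 8293234 to 8293620 (score 62.9, off the series), lay 34.5 kb to the left of this group with no peak between, and the next peak on the right was 208 kb away. These 4 peaks, the last included, were 367 to 459 bp wide and ranked 1, 8, 10 and 12 by score among the 734 peaks. Whether their sequences resemble each other was not tested.

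The second score among the 734 peaks, 126, belonged to an isolated peak from 26213896 to 26214407 (512 bp), off the series. Its nearest neighbour was 73.7 kb away and scored 8.51. The third was the strongest on the series: 19495323 to 19495774 (452 bp), with a score of 90.5 and 5.38 times the background (4.71 to 6.11). It too stood apart, 8.01 kb from a peak of 2.00 times (1.61 to 2.47). Strong isolated peaks also lay at 14274179 to 14274565 (76.9, 4.94 times, 4.31 to 5.65), with no neighbour within 51.1 kb, and at 19583711 to 19584190 (56.6, off the series), with none within 23.0 kb.

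A tied pair of peaks came next. The peaks from 5358838 to 5359277 (440 bp) and from 9190252 to 9190703 (452 bp) both had a score of 79.0 and 5.01 times the background (4.37 to 5.72). Each had 1 weaker companion in a region of 2 peaks. That of the first lay 432 bp away and stood at 2.37 times (1.94 to 2.87), and that of the second lay 2.05 kb away and stood at 2.94 times (2.45 to 3.49). For each pair, the intervals of the strong peak and its companion do not overlap. Both strong peaks were named for their scores, from which the folds follow, so this is no test of a difference.

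Of the 10 highest scores, 5 belonged to isolated peaks and 4 to regions of 2 or 3 peaks. The other, 64.7, lay in the region of 19 peaks from 13527276. Among all 26 peaks of at least 40, 9 were isolated, which is 6.25% of the 144 isolated peaks, and 17 had a neighbour, which is 2.88% of 590. Of those 17, 6 lay in regions of 10 or more peaks. The difference between these shares was not tested. Just under the first 10, the scores were 55.7 (20594547 to 20594904), 54.5 and 52.6.

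Broad peaks lay in groups. Only 41 peaks (5.59%, exact 95% interval 4.04 to 7.50%) were wider than 1 kb, against 6.43% of peaks on all arms, and they made up 20.4% of the sequence covered. All but 1 of the 41 had a neighbour within 5 kb, against 80.4% of all 734 peaks. The 17 large regions held 25 of the 41, against 35.1% of all 734. Peaks wider than 1 kb made up 0.69% of isolated peaks and 9.69% of peaks in the large regions, a difference that was not tested. The broad peaks had a median score of 21.1 against 11.8 for the narrower peaks. Of the broad peaks, 37 were on the series, with a median of 2.83 times the background and at most 3.85 times. The narrower peaks on it had a median of 2.26 times and reached 5.38 times.

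**Figure D3:**
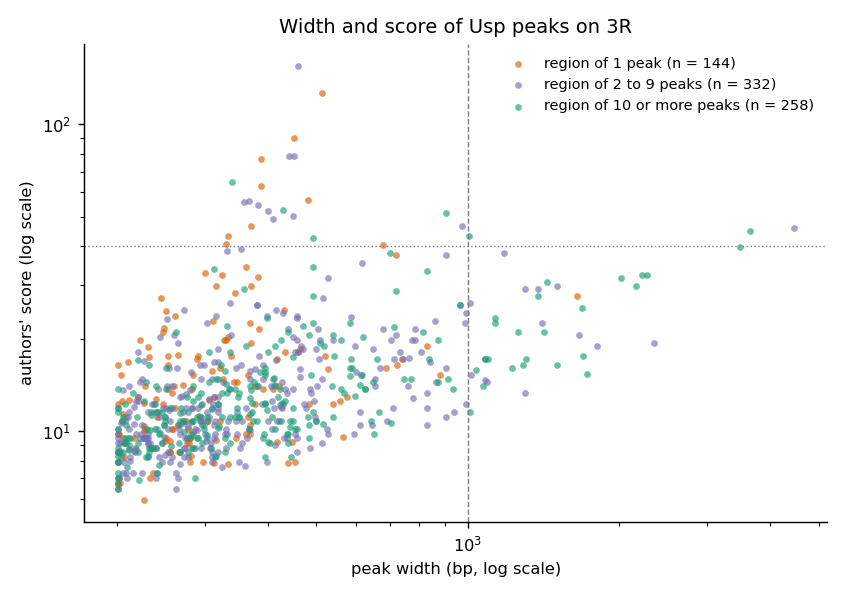
Width (bp, log scale) and score (log scale) of the 734 peaks, coloured by the number of peaks in their joined region. The dashed line marks 1 kb and the dotted line a score of 40. The tallest peaks, from 62.9 to 155, are all at most 512 bp wide, and the peaks beyond 2 kb score 19.3 to 46.0.

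The fourth widest peak, 26634493 to 26636839 (2347 bp), was the lowest of the 5 at 2.67 times the background (2.20 to 3.19), in a region of 6 peaks. Across the 734 peaks, Spearman's rho between score and width was 0.56. It was 0.60 among peaks with a neighbour and 0.45 among isolated ones. Score and width come from the same peak call, and the values are given as a description, without a test.

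Within regions, a peak off the score series had an off-series neighbour more often than a peak on it did. Of the neighbours of an off-series peak within a region, 44.0% were off the series too, against 18.2% of the neighbours of a peak on it. Part of the 195 off-series peaks missed it only narrowly: 23 with a score of 9.77 and 13 with 8.19 were within 0.015. With that tolerance, 147 peaks were off, and the shares were 37.9% and 13.5%. In the region from 5777757 to 5795182, 12 of 16 peaks were off the series, or 10 with the wider tolerance. Its last 10 peaks, from 5786464 on, were off without a break, the longest such run among the 734 peaks (the last 6 with the wider tolerance). In the region from 20085654 to 20104580, 9 of 13 were off, or 7. The share off the series was 34.7% of isolated peaks and 24.6% of peaks with a neighbour (29.2% and 17.8% with the wider tolerance), a difference that was not tested. What takes a score off the series at these peaks was not tested.

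Along the arm, peaks were uneven. The 28 bins of 1 Mb held 4 to 68 of the 734 peaks, with a median of 24. The fullest was the bin from 5 to 6 Mb (68 peaks in 19 regions), followed by 19 to 20 Mb (62 peaks in 19 regions) and 12 to 13 Mb (57 peaks in 10 regions). The emptiest were 15 to 16 Mb with 4 peaks and 23 to 24 Mb with 5. Of 269 windows of 100 kb that did not touch the left-out windows, 118 (43.9%) held no peak, and the 23 fullest held at least 50% of the peaks in them.

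The fullest 100 kb window ran from 12000001 to 12100000 and held 37 peaks, 36 of them in the region of that size. The window from 19700001 to 19800000 came second with 29 peaks and was of another kind. Its peaks fell into 6 regions and were weak, the strongest being 19711946 to 19712429 at 2.73 times the background (2.27 to 3.27). The third, 2200001 to 2300000, held the 25 peaks of the second region. The longest stretch without any peak ran from 24152482 to 24859814, 707 kb, and one of 706 kb ran from 14984253 to 15690135. Both lay outside the left-out windows. Whether reads could be mapped uniquely there was not checked.

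The number of regions on 3R was not detectably different from that of the other large autosomal arms for its length. There were 9.64 regions per Mb on 3R against 10.1 per Mb on 2L, 2R and 3L together (260 and 675 regions), a ratio of 0.95 (exact 95% interval 0.82 to 1.10, two-sided exact binomial test p = 0.54). The comparison arms keep their own dense loci, while 3R was counted without 3 windows. With all 3R peaks put back, the ratio was 0.95 (p = 0.47, exact binomial test).

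Peaks on 3R had score and width values close to those of the other autosomal arms. The median score was 12.2 on each of 2L, 2R and 3L as on 3R, and 13.7 on X. Arms 2L, 2R and 3L had median widths of 329, 322 and 334.5 bp, and X of 310 bp, and the 95% intervals of the autosomal medians overlap that of 3R. A neighbour within 5 kb was found for 81.8% of peaks on both 2L and 3L, for 80.0% on 2R and for 69.4% on X. The mean number of peaks per region was 2.82 on 3R, and 2.98, 2.63 and 3.07 on 2L, 2R and 3L. Regions of 10 or more peaks numbered 17 on 3R, and 13, 7 and 16 on those arms. The largest region held 36 peaks on 3R, and 16, 35 and 71 on them. These values are given side by side, and apart from the density above no difference between arms was tested.

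**Figure D4:**
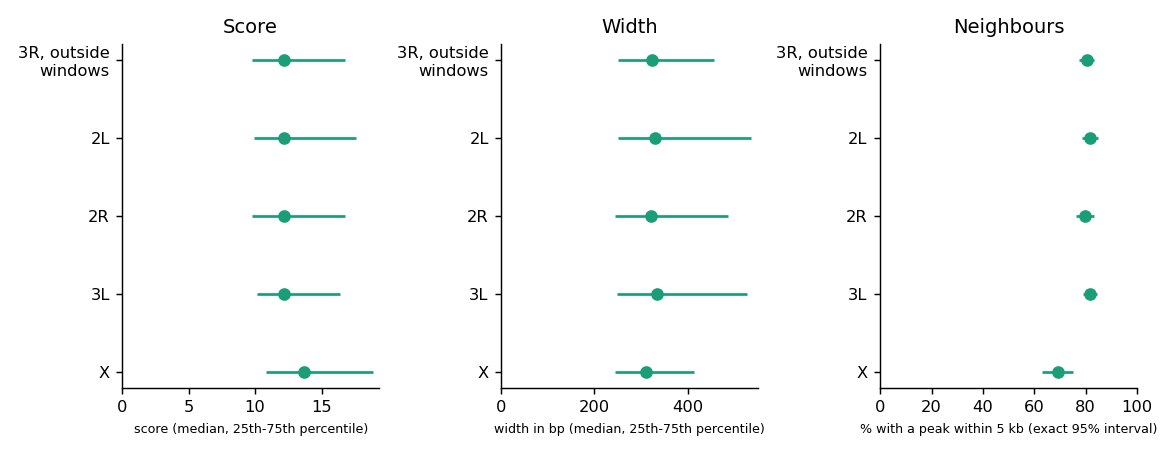
Peaks on 3R outside the left-out windows and on 4 other arms: median score and median width in bp (points) with the 25th to 75th percentile (lines), and the share of peaks with another within 5 kb with its exact 95% interval. The medians of 3R, 12.2 and 324 bp, and its share of 80.4% lie among those of 2L, 2R and 3L.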

How the data were processed

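The authors deposited 1 list of peaks for 2 ChIP and 2 input libraries, with a score per peak, called with MACS on FlyBase release 5 per the file headers. Per the submitters' processing notes, MACS2, BWA, CASAVA (versions 1.7.0.2 and 1.7.0.3) and the build BDGP5 were involved, with no role stated. The sources used here do not state thresholds, read filters, pooling of replicates or the meaning of the score.

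Peaks on 3R were joined within 5 kb, edge to edge. The background of the score series was fitted to the 52 scores shared by at least 10 peaks of the whole list (mean distance 0.00298), and a peak within 0.01 of the Poisson tail of k or more fragments was given the fold k over background. MACS can take a higher local background, and in simulated lists most scores made with one fell off the series. Whether this took place at the peaks described here was not tested. If the tail means more than k fragments, every fold is lower by 0.023. Depth per library is unknown. Intervals are at 95% (exact Poisson for folds, exact binomial for shares, order statistics for medians), cover counting error only, and take peaks as independent, which neighbours are not.

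Region density was compared by an exact binomial test on spans from first to last peak. Named were the 10 highest scores, the 5 widest peaks, the 5 highest folds, the 10 regions with most peaks (ties by covered length) with the strongest and widest peak of each, the isolated peak with the highest score, the 3 fullest windows and the longest empty stretch. Other peaks and regions were named after their values were seen. The members, the naming rule and the tests were chosen with earlier results of these data known. Planned gene assignment was not run, since the gene table is Release 6, and no release 5 sequence was used.

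Tested on simulated data (5 lists made from 3053 scores), the fit missed the true background by at most 0.0017. It gave the right pileup for 100% of on-series peaks made without a local background. Of simulated peaks with a local background above the general one, up to 9.42% were wrongly placed on the series. The 100% leaves those out. The tools were scipy 1.17.1, numpy 2.4.6, matplotlib 3.10.9 and pandas 2.3.3 under Python 3.11.15.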

Additional observations from a re-analysis of the deposited data

How the results depend on the processing

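No paired analysis was possible because peaks come as 1 list without values by library, and leaving out a library was not possible for the same reason. Of 26 alternatives, 13 kept the main value's direction and side of the threshold or, without a test, stayed within its interval or within 1.5 times its count. The density ratio of 0.95 became 1.01 with regions joined at 20 kb (exact binomial p = 0.89) and 1.11 in the top 25% of arm peaks by score (exact binomial p = 0.33), and passed the test in no setting, with p from 0.077 (peaks not joined, ratio 0.93) to 0.90; the cause was not tested. The 260 regions became 416 joined at 1 kb and 180 at 20 kb. The share with a neighbour, 80.4%, was 61.6% within 1 kb and 89.9% within 20 kb. Among the top 50% and 25% by score alone it was 66.5% and 46.2%, counts that leave out weaker neighbours. Median width, 324 bp, was 412 and 462 bp in those subsets, and 312 bp without regions of 10 or more peaks. The share on the series, 73.4%, was 67.2% at a tolerance of 0.005, 80.0% at 0.015 and 80.7% at 0.02, and the same 73.4% with the background fitted on the 734 peaks alone. The median fold, 2.30, was 2.26 at each of the tolerances 0.005, 0.015 and 0.02. Leaving out large regions and lowering pileups by 1 were chosen after seeing the data.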

Other observations

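Some regions joined at 5 kb stood just beyond the limit from another. The region of 12 peaks from 17652957 to 17667728, with a peak of 4.06 times the background (3.48 to 4.70) from 17663890 to 17664794, was 5.11 kb from a region of 7 peaks that ended at 17680854 and held a peak of 4.01 times. Joined at 20 kb they formed a single region of 19 peaks over 27.9 kb. At that distance the second largest region of 3R was the group of 30 weak peaks from 19697842 to 19774871, made of 6 regions and with no score above 20.6. The widest peak and the fourth region also merged, into 23 peaks from 13500154 to 13542652.

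The first left-out window, 2480000-2840000, held a single peak with a score of 153, close to the highest score kept on the arm, 155. The third held 24 peaks with a median score of 9.98 and a highest score of 34.3.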
